A study of Arachis hypogaea with 30 samples.

Results

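Each peanut cultivar of the study transcribed a small set of genes for which the other cultivar gave almost no reads. These genes were chosen from the FPKM values (counts divided by exonic length and library total, on the usual FPKM scale) averaged over the 3 libraries of a group. A gene was taken where its mean was at least 2 in all 5 groups of one cultivar and under 0.2 in all 5 groups of the other. The rule found 75 genes expressed only in HY33 and 80 expressed only in HY9115, together 155 of the 82955 genes of the table. "Only" is used here in the sense of these thresholds.

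RNA of whole seedlings of Arachis hypogaea was sequenced after poly(A) selection, in 30 libraries of 13072324 to 18788677 counts. Per the labels, HY33 is salt-tolerant and HY9115 salt-sensitive, and both are registered cultivars whose genetic differences the labels do not describe. Seedlings of both were grown in hydroponic boxes to the stage with 3 leaves and sampled in water at 0 h, or 3, 12, 24 and 48 h after a change to 100 mM NaCl, with 3 libraries in each of the 10 groups. No seedlings kept in water were sampled later than 0 h, and an effect of salt cannot be told apart from that of elapsed hours or daytime. The labels call the libraries biological replicates without saying whether each came from separate plants, and a p-value here refers to the spread among 3 such libraries, part of which may be technical.

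Cultivated peanut is an allotetraploid legume, and most of its genes have a counterpart, called a homoeologue, on the matching chromosome of the other subgenome. A gene can be read in one variety and not in another because it was lost, moved, silenced or changed in sequence, or because the reads of one variety match another copy of the reference better, and read counts by themselves do not separate these states. Many such genes in plants belong to duplicated families, in which another copy is still transcribed.

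The cultivar contrast chose these genes, so it is described here and not tested. In every HY33 library all 75 HY33-only genes had counts, 8678 to 15224 in sum per library, while the 80 HY9115-only genes together gave 15 to 47 counts. The HY9115 libraries showed the reverse, with 9374 to 16111 counts on all 80 HY9115-only genes and 18 to 45 on the HY33-only genes. No library went against its label in this respect, but the genes were chosen by these labels, so this is no check of them. Of the HY33-only genes, 13 had no count in any of the 15 HY9115 libraries, 36 had 1 to 3 counts in all and 26 had more than 3. Of the HY9115-only genes, 14 had none in HY33, 34 had 1 to 3 and 32 had more. The highest sums were 54 counts over the 15 HY9115 libraries for Ah17g347200 and 43 over the 15 HY33 libraries for Ah03g307800.

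**Figure D1:**
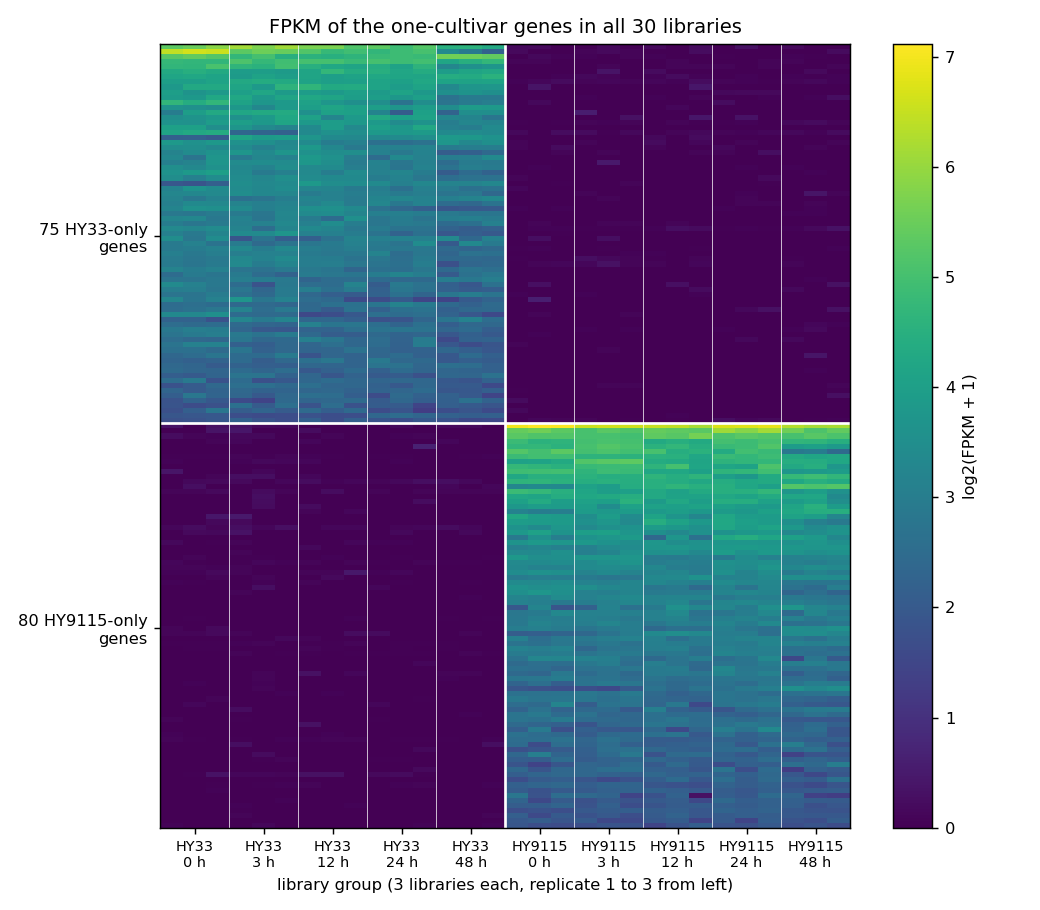
Colours show log2(FPKM + 1) of each one-cultivar gene (rows, ordered by mean level within each kind) in each of the 30 libraries (columns, grouped by cultivar and hour). The 75 HY33-only genes are lit in the 15 HY33 libraries and the 80 HY9115-only genes in the 15 HY9115 libraries.

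The thresholds, set on group means, were not met by every single library. Both were met in all 30 libraries by 50 of the 75 HY33-only and 53 of the 80 HY9115-only genes. Of the HY33-only genes, 66 reached 2 FPKM in all 15 HY33 libraries and 56 stayed under 0.2 in all 15 HY9115 libraries. Of the HY9115-only genes, 68 and 64 did so in the corresponding libraries. The lowest value of a HY33-only gene in its own cultivar was 1.44 FPKM, and that of a HY9115-only gene was 0.24, in 1 library of Ah17g504100, whose GO terms name a fatty acid synthase activity. The highest value in the other cultivar was 0.5 FPKM for a HY33-only and 0.56 for a HY9115-only gene.

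The rule was also applied to the libraries of replicate numbers taken in pairs, and the genes were then looked up in the third. With replicate 1 held out, 80 HY33-only genes were chosen and 68 of them (85%) met both thresholds in all 10 held-out libraries. With replicate 2 held out it was 60 of 74, and with replicate 3 held out 59 of 73. For HY9115-only genes the counts were 62 of 79, 65 of 76 and 68 of 78. In each of the 6 cases the held-out libraries of the cultivars did not overlap for any gene chosen. The choice had already asked for at least 2 against under 0.2 FPKM in the other replicates of the same groups. Little overlap was thus left possible, and the share without overlap over all genes was not computed.

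Genes near the thresholds show how sharp the choice is. Ah02g253400 was the HY33-only gene closest to the lower limit of expression, with a lowest HY33 group mean of 2.07, and Ah11g226600, with 1.99 and a highest HY9115 group mean listed at 0, fell just outside. On the silent side, Ah03g335600 was just inside among HY9115-only genes with a highest HY33 group mean of 0.187, and Ah04g267500 and Ah05g251200 were just outside at 0.21 and 0.213, although their lowest HY9115 group means were 21.3 and 26.8 FPKM. Ah14g296300, at 0.21 in HY9115 and at least 7.65 in the groups of HY33, was left out in the same way on the other side.

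Most one-cultivar genes were of modest abundance. The mean FPKM over the 15 own libraries ran from 2.67 to 42.0 with a median of 6.63 in the HY33-only genes, and from 2.47 to 98.3 with a median of 7.04 in the HY9115-only genes. All 26020 genes with a mean of at least 2 in all 5 HY33 groups had a median of 9.83, and the 26424 such genes of HY9115 a median of 9.79. Against these, the HY33-only genes made up 0.288% and the HY9115-only genes 0.303%. There were 5 HY33-only and 13 HY9115-only genes over 20 FPKM, and 56 and 54 under 10.

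Their gene models were short. The exonic length, a property of the annotation that the rule used only through the FPKM, had a median of 805 bases in HY33-only and 841 bases in HY9115-only genes, against 1738 and 1753 bases in all genes that reached 2 FPKM in every group of the cultivar. Models under 500 bases were 20 of the 75 HY33-only genes (26.7%) and 21 of the 80 HY9115-only genes (26.3%), against 6.55% and 6.57% of the genes compared. The shortest was Ah17g314000, a HY9115-only model of 121 bases with 23.1 FPKM and no count in HY33, and the longest was 5264 bases in HY33-only genes. In a short model 1 count is worth more FPKM, so that the upper limit of 0.2 admits fewer stray counts there than in a long one.

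**Figure D2:**
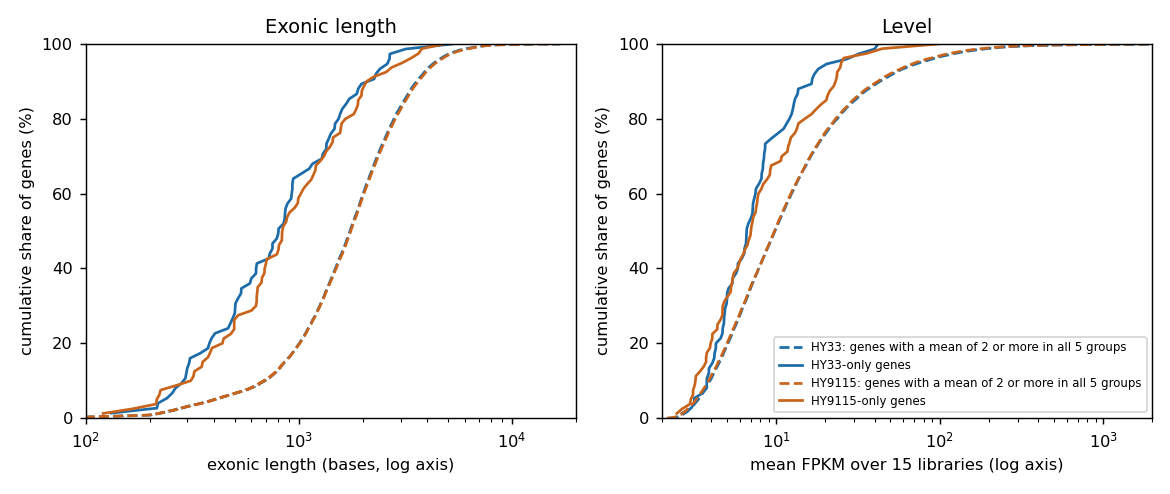
Cumulative share of genes (%) by exonic length in bases and by mean FPKM over the 15 libraries of a cultivar, both on log axes, for one-cultivar genes (solid) and all genes with a mean of 2 or more in all 5 groups of that cultivar (dashed). The solid length curves lie to the left of the dashed ones, with medians of 805 and 841 bases against 1738 and 1753.

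A GO process, GO function or KO annotation was present for 41 of the 75 HY33-only genes (54.7%) and 45 of the 80 HY9115-only genes (56.3%), against 68.4% and 68.2% of the genes that reached 2 FPKM in every group. The roles below are those that the table's GO terms give, and genes without such terms are named by their identifier alone. Genes are said to share an annotation where their GO process terms, GO function terms and KO are all the same. Genes of like function with other terms are then not counted, so a gene alone in its annotation need not be alone in its function. Whether an annotated model encodes a complete protein was not tested, and many of the models are short.

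Among signalling genes, the most abundant HY33-only gene was Ah09g114300, whose GO terms name a serine/threonine receptor-type kinase of nodulation and the response to symbiotic bacteria, the process by which legumes house nitrogen-fixing rhizobia. The model lies on chromosome 9 from 14238677 to 14239948 (plus strand) and has only 478 exonic bases. Coordinates are those of the deposited table, whose genome build is not given in the sources used here. Its HY33 values ran from 18.7 to 69.4 FPKM, with group means of 46.7 at 0 h, 62.8 at 3 h, 45.0 at 12 h, 34.5 at 24 h and 20.8 at 48 h. The HY9115 libraries held 8 counts in all and no more than 0.25 FPKM. The only other gene with the same annotation, Ah06g210500, had no count in any of the 30 libraries.

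Ah11g239700, a second HY33-only kinase, carries terms for a coreceptor, anther development and the number of meristem cells, and had a mean of 7.54 FPKM. It overlaps a second model on the same strand with the same annotation, Ah11g239800, at 0.587 FPKM in HY33 and 0.0073 in HY9115. Of the 2091 genes in the table's protein kinase list 1264 were tested, and no HY9115-only gene was among them. The HY9115-only gene Ah14g111100, annotated as a histidine kinase and described below, carries other terms and is outside this list.

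Light sensing appeared as a pair. Ah03g603100 on chromosome 3 and Ah20g126200 on chromosome 20 carry the terms of a phytochrome, the red and far-red photoreceptor of plants, and are the only genes of the table with exactly this annotation. Both were HY33-only, at means of 3.78 (1.97 to 5.12) and 4.29 (2.84 to 5.86) FPKM in HY33, while HY9115 had at most 0.08 FPKM for either.

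Among HY9115-only genes, Ah14g111100 is annotated as an osmosensor and phosphorelay histidine kinase with terms for abscisic acid signalling, osmotic stress and water deprivation, the part played in plants by sensor kinases that register loss of turgor. Its values were 7.08 to 11.8 FPKM in HY9115, and no other gene shares its annotation. It passed the salt test at no time, as described below. Ah14g451000 is annotated as a cysteine dioxygenase of hypoxia detection, an oxygen sensor that marks transcription factors for breakdown, at a mean of 3.11 FPKM. Ah18g312700 carries the terms of an auxin efflux carrier, which moves the hormone auxin out of cells, at 7.18 FPKM.

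Metabolic genes included several of the most abundant. Ah02g127400 (HY33-only, 801 exonic bases) is annotated as 2-carboxy-D-arabinitol-1-phosphatase, which removes an inhibitor of RuBisCO bound in the dark. Its HY33 values ran from 17.0 to 33.8 FPKM, and group means stayed between 21.1 and 30.02. The 1 other gene with this annotation reached a mean of only 0.125 FPKM in HY33 and had no count in HY9115. Ah11g190300 (HY9115-only) carries the term for homogentisate phytyltransferase, the first committed step of tocopherol (vitamin E) synthesis, at 12.3 to 30.1 FPKM, and the 5 other genes with its annotation summed to 10.3 in HY9115 and 9.70 in HY33. Ah04g105300 (HY9115-only), annotated as a cystathionine lyase of cysteine and methionine synthesis, stood at 2.97 FPKM, and its 3 annotation partners were at or near 0 in both cultivars.

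Ah14g470500 was the second most abundant HY9115-only gene, at 32.1 to 69.3 FPKM, with terms for an ATP-dependent peptidase and protein import into chloroplasts. Its model has 384 exonic bases, and 13 other genes share its annotation, summing to 16.6 FPKM in HY9115 and 15.2 in HY33. Ah01g156400 (HY9115-only), an iron-sulfur electron carrier of ferredoxin type by its terms, had a mean of 18.7 FPKM beside 2 genes of the same annotation at 6.91 and 13.1 in HY33 and 7.51 and 12.9 in HY9115. The most abundant gene of all, Ah05g262200 (HY9115-only, chromosome 5), has no annotation. Its HY9115 values were 70.5 to 138 FPKM and its HY33 libraries held 11 counts.

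Further abundant HY33-only genes with GO terms included Ah01g165300 (31.9, kinase binding and responses to sugars), Ah11g250800 (20.4, a small GTPase of cytoskeleton organization) and the ribosomal protein gene Ah02g122800 (17.2). On the HY9115 side the ribosomal protein gene Ah04g101100 stood at 11.7 FPKM, and 5 other genes with its annotation summed to 97.1 in HY9115 and 94.3 in HY33. Transporters included Ah14g108600 and Ah14g110600 (HY33-only, an ABC-type lipid transporter at 4.85 and a xenobiotic antiporter at 3.17 FPKM) and, among HY9115-only genes, Ah18g252300 (nitrate, 5.52) and Ah13g184700 (amino acids, 5.28).

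Members were counted in lists of gene groups often named for differences between varieties. A GO list holds the genes given its terms themselves, and genes with other, narrower terms are not counted. No one-cultivar gene was in the lists for ADP binding (the term of NB-ARC resistance proteins, 36 tested genes), the defense response term itself (772), cytochrome P450-type oxidoreductases (241), UDP-glycosyltransferases (117), terpene synthases (16), nutrient reservoirs (20), mobile elements (9) or the plant-pathogen interaction pathway (339), and the term for peptidase inhibitors is given to 0 genes of the table. The HY9115-only gene Ah09g284400 (5.80 FPKM) carries a term for isoprene synthase activity, which the terpene synthase list does not hold. Ribosomal proteins and the response to salt stress had 1 member of each kind, among 527 and 606 tested genes. The transcription factor term had 1 (Ah01g191200, HY9115-only) among 1705 tested, and the general terms for transmembrane transport 1 (Ah14g110600) among 490. Other members carry more specific transporter terms and are outside that list. They include Ah14g108600, Ah18g252300, Ah13g184700, Ah18g312700, Ah01g182700 and Ah19g322700. Only genes with a mean of at least 2 in all 5 groups of a cultivar can be members. The terpene synthase list had 0 such genes in either cultivar, so its lack of members was fixed in advance. ADP binding had 13 in each cultivar, nutrient reservoirs 12 in HY33 and 13 in HY9115, and mobile elements 5 and 6. At 75 and 80 genes, these counts are too small for the lists to be compared, and absence from a list is not a result.

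For most annotated members, other genes with the identical annotation existed. This was so for 37 of 41 annotated HY33-only and 36 of 45 annotated HY9115-only genes, and 12 and 13 of these had one on the matching chromosome of the other subgenome. In 26 HY33-only and 31 HY9115-only cases these other genes summed to at least 2 FPKM in the cultivar that lacked the member. Such a sum covered up to 82 other genes (Ah05g308700). The same counts over all annotated genes were not computed, so nothing particular to members can be read from them. Shared annotation is not proof of a shared ancestor, since sequences were not compared here. Among the 37 and 36 members with such other genes, the median member gave 41.8% of the summed FPKM of its annotation in HY33 and 27.6% in HY9115; the 4 and 9 annotated members without any are not in these medians.

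A few cases show the range. Ah04g258400 (HY9115-only, 3.77 FPKM) carries terms for base-excision repair and DNA demethylation, and its only partner, Ah14g303600 on the matching chromosome 14, had 5.495 ± 0.680 FPKM in HY33 and 5.36 ± 0.76 in HY9115 (SD, n = 15 libraries each). Ah18g314200 (HY33-only, 5.11 FPKM), an asparagine amidohydrolase of protein breakdown, had the partner Ah07g207000 at 6.73 ± 1.26 in HY33 and 7.24 ± 1.96 in HY9115. For both genes the partner differed between the cultivars by less than 1 SD. These SDs span the 5 time points and include the changes over time, so equal levels do not follow.

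The proteasome subunit annotation of Ah09g269200 gave a reciprocal picture. Ah09g269200 on chromosome 9 was HY9115-only, at 6.55 to 11.1 FPKM in HY9115. Ah09g154000 on the same chromosome, with the same annotation, had 14.03 to 29.4 FPKM in HY33 and 0 to 0.66 in HY9115, where a group mean above the limit of 0.2 kept it from being a member. The third gene of this annotation, Ah05g116900, was at 16.1 ± 3.8 in HY33 and 18.1 ± 3.0 in HY9115 (SD, n = 15). Only 1 pair of annotated members of opposite kinds shared an annotation exactly, Ah02g127500 (HY33-only, 6.17 FPKM) and Ah13g612500 (HY9115-only, 4.37 FPKM). Both are annotated as a zinc alcohol dehydrogenase that oxidizes the glutathione adduct of formaldehyde. The HY9115-only gene Ah0g008800 (3.11 FPKM) has the same GO function terms. It differs in its other terms and was therefore counted as having no other gene of its annotation.

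The response to salt was tested within the expressing cultivar, a contrast that did not choose the genes, although the rule kept each group mean of a member at 2 or more. edgeR's quasi-likelihood test was fitted to the counts of all 42311 tested genes, and a gene is said to rise or fall where the Benjamini-Hochberg adjusted p was under 0.05 and the log2 change at least 1 in size. All 155 members passed the filter for this test, through the cultivar in which they are expressed. The log2 changes rest on TMM-scaled counts and FPKM on library totals, and at 48 h, where the TMM factors were 0.804 to 0.846 in HY33 and 0.887 to 0.91 in HY9115, FPKM values understate a rise and overstate a fall in comparison. The times share the 0 h libraries as controls, and in whole seedlings fewer cells of a type and less RNA per cell cannot be told apart.

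Green-tissue genes moved over the same hours. The summed FPKM of the 8 RuBisCO small subunit genes was 21416 to 22657 at 0 h and 2570 to 2710 at 48 h in HY33, and 16740 to 19005 and 2063 to 2335 in HY9115. In the same order the 5 light-harvesting genes gave 2808 to 3203 and 549 to 618 in HY33, and 2557 to 2802 and 530 to 569 in HY9115. The 20 root nitrate transporter genes summed to 95.6 to 102 at 0 h and 47.4 to 71.0 at 48 h in HY33, and to 118 to 170 and 77.3 to 88.2 in HY9115. The 36 nutrient reservoir genes gave 542 to 571 and 587 to 599 in HY33, and 447 to 477 and 779 to 797 in HY9115. Their part in the changes below was not tested.

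At the salt times 4 to 12 of the HY33-only and 1 to 8 of the HY9115-only genes rose or fell. At 3 h, 3 of the 75 HY33-only genes rose and 5 fell, where 6.61% of all tested genes rose and 7.45% fell in HY33. At 12 h, 2 rose and 2 fell (background 11% and 12.9%), and at 24 h, 2 rose and 5 fell (10.4% and 13.4%). At 48 h, 3 rose and 9 fell (14.3% and 20.1%). In HY9115, 1 of the 80 HY9115-only genes rose and 0 fell at 3 h (background 8.27% and 6.43%), 5 rose and 0 fell at 12 h (11.4% and 12.4%), 3 rose and 0 fell at 24 h (9.2% and 10.5%), and 6 rose and 2 fell at 48 h (14.5% and 21.3%).

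The background of all tested genes includes many that were off at some time, which the rule does not allow for members. Among genes with a mean of at least 2 in all groups of the cultivar, 4.3% rose and 4.65% fell at 3 h in HY33, 8.02% and 6.46% at 12 h, 7.82% and 5.33% at 24 h, and 13.1% and 9.97% at 48 h. In HY9115 these shares were 5.51% and 3.67%, 8.75% and 4.72%, 6.21% and 3.61%, and 12.7% and 10.1%. The HY33-only genes that fell were 6.67%, 2.67%, 6.67% and 12% of the 75 at the successive times, on either side of that narrower background. Without replicate 3 of HY33 at 0 h the 9 that fell at 48 h became 5, and with total counts in place of TMM factors 14. The HY9115-only genes that rose were 2 at 3 h without replicate 3 of 0 h or replicate 2 of 3 h, 3 at 12 h without replicate 2 of 12 h, 5 at 24 h without replicate 2 of 0 h or of 24 h, and 10 at 48 h without replicate 2 of 0 h. Those that fell at 48 h were 6 with total counts.

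Where 0 HY9115-only genes fell, the test at an adjusted p under 0.05 without the limit on size counted 6 at 3 h, 10 at 12 h and 5 at 24 h, and DESeq2 with the limit also gave 0. With that limit removed, 10, 11, 19 and 23 HY9115-only genes were higher at the 4 times. The median log2 change of the HY33-only genes was -0.10, 0.10, -0.07 and -0.14 at 3, 12, 24 and 48 h, and that of the HY9115-only genes -0.05, 0.02, 0.18 and 0.14, beside medians of all tested genes between -0.03 and 0.03.

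**Figure D3:**
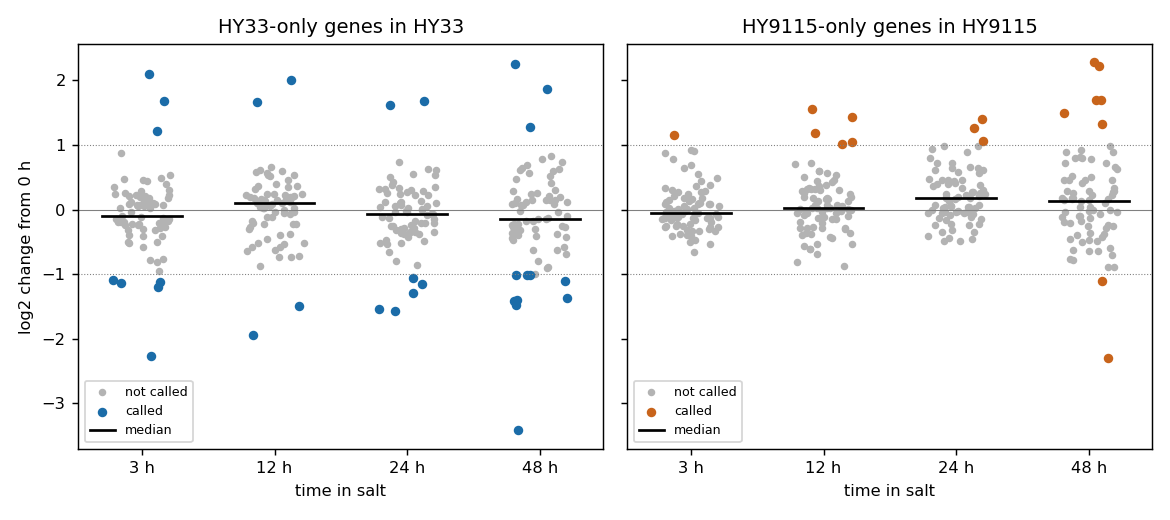
Each point is the log2 change of a one-cultivar gene from 0 h in its own cultivar (y axis) at 3, 12, 24 and 48 h (x axis); coloured points passed the test, black lines are medians and dotted lines mark changes of 1 and -1. Changes ran from -3.42 to 2.25 in the 75 HY33-only genes and from -2.31 to 2.28 in the 80 HY9115-only genes.

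Ah01g191600 was the HY33-only gene that changed most. It lies on chromosome 1 from 40306329 to 40307249 (minus strand), and its GO terms name defense against fungi, induced systemic resistance and responses to abscisic acid, cold and salt. Its FPKM values at 0 h were 85.7, 97.4 and 92.6. They were 39.3, 45.8 and 42.8 at 3 h, 35.7, 26.3 and 29.5 at 12 h, 24.97, 28.7 and 31.9 at 24 h, and 9.45, 6.70 and 3.73 at 48 h. The libraries of every salt time lay below all those of 0 h, and the 48 h libraries below all others. The log2 changes were -1.14 ± 0.15, -1.49 ± 0.16, -1.57 ± 0.16 and -3.42 ± 0.18 (SE, edgeR, n = 3 against 3, adjusted p 2.43e-07, 1.14e-09, 3.59e-10 and 6.07e-17). HY9115 libraries held 10 counts of this gene in all.

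The 3 genes with the same annotation all lie on chromosome 11, the matching chromosome, and were read in both cultivars. Ah11g209400 also fell at all 4 times, from 118 ± 16 FPKM at 0 h to 6.62 ± 1.85 at 48 h in HY33 (log2 change -3.78 ± 0.24, adjusted p 8.07e-16) and from 219.5 ± 54.6 to 1.33 ± 0.32 in HY9115 (-7.10 ± 0.30, adjusted p 1.51e-20; SD and SE, n = 3, edgeR). Ah11g209600 fell at all 4 times in both cultivars too, from low levels of 1.76 and 2.55 FPKM at 0 h. Ah11g208200 instead rose at 3 h, from 9.82 ± 2.46 to 36.7 ± 5.6 FPKM in HY33 (1.87 ± 0.16, adjusted p 1.53e-11) and from 8.88 ± 3.38 to 38.0 ± 2.2 in HY9115 (2.12 ± 0.17, adjusted p 9.26e-13), and fell in both at 24 h. Differences in change between these genes were not tested.

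A pair of neighbours on chromosome 17 fell at 3 h and at no later time. Ah17g347200 (105115395 to 105135989 is the span of the pair) had 16.9, 18.6 and 19.8 FPKM at 0 h and 4.18, 3.86 and 3.64 at 3 h. All 3 h libraries lay below the 0 h libraries, and the values at 12, 24 and 48 h, from 9.35 to 13.8, lay between. The log2 change at 3 h was -2.27 ± 0.14 (edgeR, adjusted p 1.68e-15), and the smaller differences at 12, 24 and 48 h were -0.72, -0.35 and -0.58, under the limit of 1. Its neighbour Ah17g347100, annotated as a 3-hydroxyacyl-CoA dehydrogenase of fatty acid beta-oxidation, went from 6.80 ± 0.59 to 3.27 ± 0.71 FPKM at 3 h (SD, n = 3; log2 change -1.09 ± 0.20, edgeR adjusted p 5.32e-05).

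The table holds a second pair of neighbours with these annotations on chromosome 8, transcribed in both cultivars. Ah08g025400 has the annotation of Ah17g347200 and had 13.4 ± 0.9 FPKM at 0 h and 13.7 ± 0.8 at 3 h in HY33 (log2 change -0.0047 ± 0.075, edgeR adjusted p 0.971). Ah08g025500 has that of Ah17g347100 and had 7.51 ± 0.73 and 9.22 ± 0.30 FPKM at these times (log2 change 0.27 ± 0.12, edgeR adjusted p 0.0609). In HY9115 at 24 h Ah08g025500 fell from 15.4 ± 1.4 to 7.06 ± 0.13 (-1.07 ± 0.11, adjusted p 6.94e-10; SD, n = 3). Whether the pairs differ in their change was not tested.

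Other HY33-only genes that fell were Ah19g390300 at 3, 12 and 48 h, with a lowest change of -1.95 ± 0.25 at 12 h, Ah16g389800 and Ah15g513000 at 24 and 48 h, Ah13g119100 and Ah07g321200 at 24 h, and Ah07g314300 at 3 h. Ah07g321200 carries the terms of a myosin-type motor, which carries vesicles along actin. At 48 h the genes that fell also included Ah19g322700, a calmodulin-binding cation pump by its terms, from 13.3 ± 2.0 to 3.85 ± 0.73 FPKM (SD, n = 3; log2 change -1.41 ± 0.17, edgeR adjusted p 8.09e-08). Ah01g182700 (thiamine pyrophosphate transport), the GTPase gene Ah11g250800, Ah13g260300 and Ah14g382700 fell at 48 h by 1.02, 1.01, 1.01 and 1.10 on the log2 scale, close to the limit. The fall of Ah07g314300 was lost without replicate 1 or without replicate 3 of its 3 h group (adjusted p 0.063 and 0.0511).

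Only 3 HY33-only genes rose at any time. Ah06g084700, without annotation, had 3.51, 3.6 and 3.16 FPKM at 0 h and 17.0, 13.8 and 14.3 at 3 h. Its libraries at all 4 salt times, from 8.93 FPKM upward, lay above those of 0 h, with log2 changes of 2.10 ± 0.21, 1.67 ± 0.22, 1.62 ± 0.21 and 2.25 ± 0.21 (edgeR, adjusted p 4.82e-09, 2.66e-07, 4e-07 and 5.46e-10). Ah17g236200, also without annotation, was at 2.85, 2.58 and 3.43 FPKM at 0 h and between 7.65 and 13.1 at the later times. Its changes were 1.68, 2.01, 1.67 and 1.86 on the log2 scale, each with an SE of 0.15. The lipid transporter gene Ah14g108600 rose at 3 h (1.22 ± 0.33, adjusted p 0.00432) and at 48 h (1.28 ± 0.34, adjusted p 0.00182), with values of 2.46 to 3.74 FPKM at 0 h and 6.56 to 8.60 at 3 h. Without replicate 3 of all groups its 3 h change had an adjusted p of 0.0659.

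**Figure D4:**
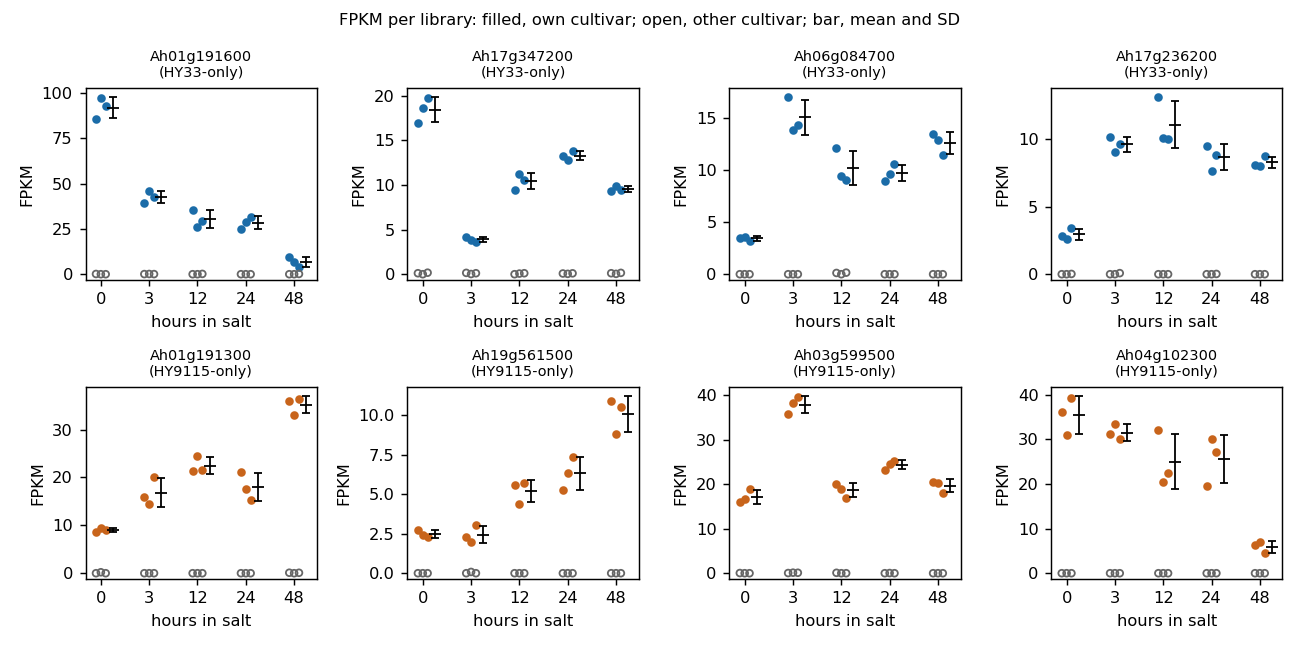
FPKM (y axis) of 8 one-cultivar genes in each library over hours in salt (x axis, 0 h in water), with filled points for the own cultivar, open points for the other and a bar for mean and SD of 3 libraries. Ah01g191600 goes from a mean of 91.9 to 6.63 FPKM in HY33 and Ah01g191300 from 9.01 to 35.2 in HY9115, while the open points stay near 0.

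Among HY9115-only genes that passed the test, more rose than fell at each time, as in the narrower background above. Of all 80 log2 changes, 37, 44, 53 and 44 were above 0 at 3, 12, 24 and 48 h. Below 0 were 43, 36, 27 and 36. Ah03g599500 on chromosome 3, annotated as a glucuronoxylan 4-O-methyltransferase of the secondary cell wall, which decorates the hemicellulose xylan, was the only HY9115-only gene that rose at 3 h. It had 15.9, 16.6 and 19.0 FPKM at 0 h and 35.7, 38.3 and 39.5 at 3 h, without overlap (log2 change 1.16 ± 0.10, edgeR adjusted p 1.7e-11). At 12 h it was back at 17.0 to 19.99. Its single annotation partner, Ah13g628100 on the matching chromosome 13, was present in both cultivars at lower levels and also rose at 3 h, from 4.71 ± 0.22 to 9.67 ± 0.50 FPKM in HY33 (1.01 ± 0.13, adjusted p 6.83e-08) and from 2.90 ± 0.45 to 8.41 ± 0.30 in HY9115 (1.55 ± 0.14, adjusted p 1.74e-11; SD and SE, n = 3).

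The transcription factor gene Ah01g191200 and its neighbour Ah01g191300, which has no annotation, rose together on chromosome 1. Ah01g191300 had 8.58, 9.38 and 9.07 FPKM at 0 h and 36.0, 33.1 and 36.5 at 48 h. The libraries at 3, 12 and 24 h, from 14.4 to 24.5 FPKM, lay between. Its log2 changes were 1.44 ± 0.16 at 12 h, 1.06 ± 0.16 at 24 h and 2.22 ± 0.16 at 48 h (edgeR, adjusted p 1.19e-08, 2.72e-06 and 5.61e-13), and the 24 h change was 0.94 without replicate 1 of that time. Ah01g191200 went from 7.36 ± 0.51 FPKM at 0 h to 13.7 ± 0.9 at 12 h and 19.9 ± 1.9 at 48 h (SD, n = 3; log2 changes 1.01 ± 0.14 and 1.69 ± 0.14, edgeR adjusted p 7.04e-07 and 2.59e-11).

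Ah19g561500, annotated with proteasomal protein breakdown, had 2.73, 2.42 and 2.26 FPKM at 0 h, 2.26, 2.00 and 3.06 at 3 h, and 10.9, 8.78 and 10.5 at 48 h. The libraries of 0 and 3 h overlapped and those of 48 h lay above all others. Its log2 changes were 1.19 ± 0.24, 1.41 ± 0.24 and 2.28 ± 0.23 at 12, 24 and 48 h (edgeR, adjusted p 0.000153, 1.59e-05 and 2.32e-09). Its partner Ah13g349300 was far more abundant, at 60.0 FPKM in HY33 and 55.3 in HY9115. Among genes without a GO term, Ah0g008200 on an unplaced scaffold rose at 12 and 48 h (1.56 and 1.70), Ah02g284500 at 24 h (1.26) and Ah03g408000 at 48 h (1.502), all on the log2 scale. Ah09g057400 rose at 12 and 48 h, although its libraries overlapped those of 0 h.

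The HY9115-only genes that fell did so at 48 h. Ah04g102300, a model of 214 exonic bases without annotation and with no count in HY33, had 36.2, 31.0 and 39.3 FPKM at 0 h, 19.5 to 33.5 at 3, 12 and 24 h, and 6.28, 7.01 and 4.46 at 48 h. The 48 h libraries lay below all others (log2 change -2.31 ± 0.25, edgeR adjusted p 1.39e-08). Ah10g110800 went from 11.2 ± 0.9 to 4.35 ± 0.63 FPKM (SD, n = 3; -1.10 ± 0.15, edgeR adjusted p 4.26e-07). The osmosensor-type gene Ah14g111100 and the salt-response gene Ah09g269200 were not among the genes that rose or fell at any time.

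Over all 5 group means, the highest was a median of 1.81 times the lowest in HY33-only and 1.58 times in HY9115-only genes, against 1.80 and 1.62 in all genes with a mean of at least 2 in every group of the cultivar. A ratio of 3 or more was found in 12 HY33-only genes (16% of 75, against 17.8% of the genes compared) and in 3 HY9115-only genes (3.75% of 80, against 15.6%).

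The members were spread unevenly over the chromosomes. Chromosome 2 held 20 (13 HY33-only and 7 HY9115-only), chromosome 3 held 18 (10 and 8), chromosome 4 held 13 and chromosome 14 held 12. On chromosome 2 they were 1.24% of the tested genes, while on chromosomes 8 and 10, with 1 member each, they were 0.048% and 0.052%. Chromosomes 1 to 10 held 38 HY33-only and 45 HY9115-only genes, chromosomes 11 to 20 held 37 and 33, and 2 HY9115-only genes lay on 1 unplaced scaffold. Of all tested genes, 48.3% are on chromosomes 1 to 10.

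**Figure D5:**
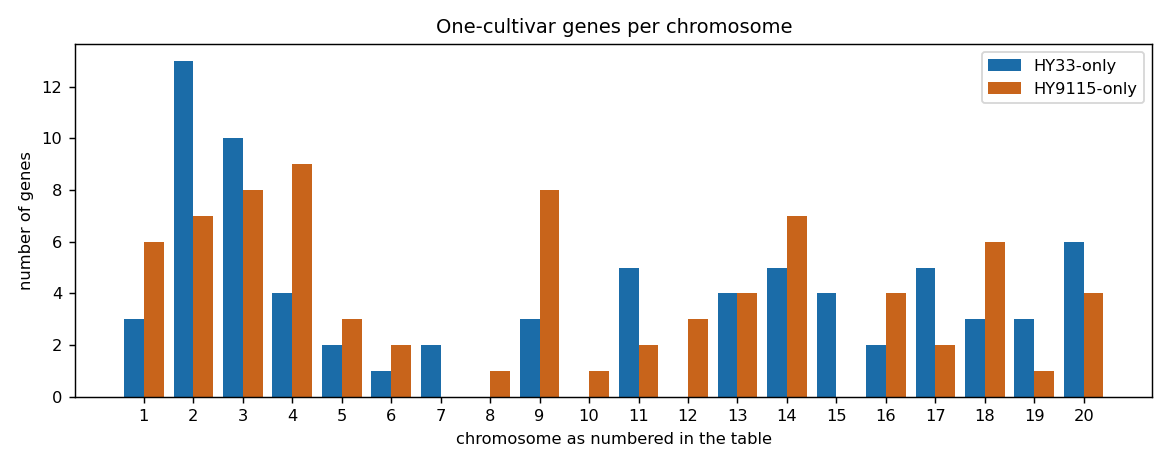
Number of HY33-only and HY9115-only genes (y axis) on each of the 20 chromosomes (x axis). Bars are counts and start at 0; chromosome 2 has 13 and 7, and chromosomes 8 and 10 have 1 gene each.

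Some members lay beside another of their kind. An adjacent gene of the table was of the same kind for 18 of the 75 HY33-only and 12 of the 80 HY9115-only genes, among them the overlapping models Ah03g391600 and Ah03g391700 (HY33-only) and Ah09g269200 and Ah09g269400 (HY9115-only). Another of the same kind lay within 100 kb for 22 and 18. The corresponding share for genes drawn from the whole table was not computed. Allowing 2 other genes between members, 20 HY33-only genes formed 9 runs and 14 HY9115-only genes formed 7. The longest runs had 3 genes. On chromosome 2, from 17565666 to 17582723, the phosphatase gene Ah02g127400 (27.2 FPKM) lay between Ah02g127200 (nucleosome assembly and DNA repair, 4.07) and Ah02g127500 (alcohol dehydrogenase, 6.17). On chromosome 3, from 142821914 to 142850741, the phytochrome-type Ah03g603100 was followed by Ah03g603200 (manganese ion binding, 6.997) and Ah03g603300 (chloroplast localization, 6.41). The next gene outside, Ah03g603400, had 1.46 FPKM in HY33 and 1.94 in HY9115. After the chromosome 2 run the next gene, Ah02g127600, had 0.587 FPKM in HY33 and 0 in HY9115.

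In a few places, named after their values were seen, genes of opposite kinds lay close together. On chromosome 1 the HY9115-only pair Ah01g191200 and Ah01g191300 (40129837 to 40137457) lay 168872 bases from the HY33-only gene Ah01g191600. Between them Ah01g191400 was read in both cultivars and fell in both at all 4 salt times, from 58.1 ± 2.6 FPKM at 0 h to 7.11 ± 0.82 at 48 h in HY33 (log2 change -2.66 ± 0.17, edgeR adjusted p 2.94e-15) and from 57.9 ± 13.6 to 0.857 ± 0.297 in HY9115 (-5.81 ± 0.24, edgeR adjusted p 8.19e-21; SD and SE, n = 3). Beyond, Ah01g191700 had 5.46 FPKM in HY33 and no count in HY9115. On chromosome 14 the HY33-only antiporter gene Ah14g110600 and the HY9115-only osmosensor-type gene Ah14g111100 were separated by 4 genes, of which Ah14g110700 and Ah14g110800 were read in both (26.6 and 30.2, and 26.0 and 26.5 FPKM in HY33 and HY9115). On its other side Ah14g110600 lay next to Ah14g110500, with 2.40 FPKM in HY33 and 0 in HY9115. A gene of the opposite kind lay within 10 genes for 8 members of each kind.

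The 5 nearest tested genes on each side of a member, members left out, were compared between the cultivars with the same fit. At 0 h, 9.66% of the 621 neighbours of HY33-only genes and 13.1% of the 662 neighbours of HY9115-only genes differed between the cultivars by the thresholds above. This was so for 5.37% of the 42156 tested genes that are not members, the neighbours among them, and for 5.71% of all. At the later times the shares of neighbours were 7.73% to 12.1% and 9.82% to 13.6%, against 3.40% to 8.69% of these non-members. Of all tested genes it was 5.85%, 3.76%, 5.16% and 9.02% at 3, 12, 24 and 48 h. Neighbours higher in HY33 at all 5 times were 3.06% beside HY33-only genes and 2.12% beside HY9115-only genes, against 0.432% of the non-members. Those lower in HY33 at all 5 times were 0.322% and 3.93%, against 0.311% of the non-members. These shares are descriptions, since the neighbours depend on genes chosen by the same contrast. Non-member models that overlap a member were not left out of the neighbours, and some follow that member. Ah14g297000, overlapping a HY33-only gene, had 3.08 FPKM in HY33 and 0.004 in HY9115. Ah09g284600, overlapping a HY9115-only gene, had 0.0127 and 2.88. The shares without such models were not computed. Among all tested genes, 257 (0.607%) were higher in HY33 at all 5 times and 211 (0.499%) higher in HY9115. All 75 and 80 members were among these, as the rule all but required, and made up 29.2% and 37.9% of them.

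For 3 members of each kind the median of the 10 neighbours itself differed between the cultivars by a log2 difference of 1 or more at some time. The neighbours of Ah14g470500 and Ah14g474600 on chromosome 14 had medians of -1.74 and -2.86 at 0 h (HY33 minus HY9115), and those of Ah17g298400 and Ah17g298500 on chromosome 17 a median of 2.40 at 0 h. At 3 h these medians were 0.21, -0.28 and 0.40, and at 12 h 0.19, -0.17 and -0.60. At 24 h they were -0.98 and -1.22 on chromosome 14 and 0.04 on chromosome 17, and at 48 h 0.12, -0.68 and -0.23. The remaining members of this kind reached 1 only at 48 h. These were Ah15g525600 (HY33-only), with a neighbour median of 1.04, and Ah12g362500 (HY9115-only), with 1.07. The neighbours of Ah12g362500 were thus higher in the cultivar that lacked it. Without the 3 genes of each kind the counts of genes that rose or fell in salt stayed within 1.5 times.

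Some members are parts of larger or overlapping models. Another gene of the table overlapped 11 HY33-only and 14 HY9115-only genes, on the opposite strand for 1 and 4 of them. Ah14g297100 (HY33-only, a ubiquitin-conjugating enzyme of cell division by its terms, 3.76 FPKM) overlaps Ah14g297000, which has the same annotation and 3.08 FPKM in HY33 against 0.004 in HY9115. Ah03g391600 (18.1 FPKM) and Ah03g391700 (3.88) overlap each other and are both HY33-only. How the counting assigned reads in overlaps, on the same strand or on opposite strands, is not stated in the labels or headers, and the number of members is not a number of separate loci.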

How the data were processed

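Per library, the deposited table holds raw read counts (whole numbers, not normalized as far as they show) and FPKM values for each gene. The deposited FPKM equal the counts divided by exonic length and library total in 100% of values (tolerance 0.005). The exonic gene length is a deposited column. The submitters' processing notes name DESeq2, HTSeq 0.6.1, HISAT2 2.2.1 and cutadapt 1.9.1. Genome build, annotation version and strand setting: not given in the sources used here. How reads matching several near-identical copies were counted is likewise unknown. Libraries were made from oligo(dT)-captured RNA with random priming, per the labels' protocols. All columns matched 1 sample, and no replicate pair agreed within sampling noise (2.07 to 8.60 for the chi-square divided by its degrees of freedom).

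Members were chosen by the FPKM rule given above. The test on the counts was that of edgeR 4.0.16 (R 4.3.3): TMM factors (0.804 to 1.11), 1 fit of 30 libraries with a coefficient per group, glmQLFit and glmQLFTest (common biological coefficient of variation 0.0929), for the 42311 genes that reached 1 FPKM in 3 or more libraries. Adjustment was over all of these. The script was tested on simulated counts. Alternatives were DESeq2 1.42.0, total-count scaling, other filters and thresholds, TPM, a replicate block and leaving out libraries; limma on log2 FPKM, planned for a table without counts, did not apply.

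The members and lists were chosen with earlier results of these data known. Named genes are, per cultivar, those among the 12 most abundant, up to 3 called per time and direction without library overlap, up to 3 per list, the genes beside each threshold and the longest runs, with annotated genes preferred; others named were chosen after their values were seen. Other called genes are named to complete small counts. KO identifiers were used to match annotations but come without names. The reference gene table at hand uses other identifiers and was not used.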

Additional observations from a re-analysis of the deposited data

How the results depend on the processing

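The number of HY33-only and HY9115-only genes was 31 and 42 with expression set at 5 FPKM, all among the 75 and 80, and 50 and 53 when each library by itself had to meet the thresholds. At 1 and 0.1 FPKM there were 93 and 88, with 58 of the 75 and 68 of the 80 shared; TPM gave 93 and 88 with 70 and 74 shared, and TMM-rescaled FPKM 83 and 84 with all members shared. Leaving out libraries gave 73 to 80 HY33-only and 76 to 82 HY9115-only genes. Levels in the other cultivar rest on at most 54 counts over 15 libraries, so members cannot be ranked by them.

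Without the limit on size, HY33-only genes higher and lower were 7 and 11 at 3 h, 7 and 12 at 12 h, 9 and 14 at 24 h, and 14 and 18 at 48 h. HY9115-only genes were then 10 and 6, 11 and 10, 19 and 5, and 23 and 15. With total counts, which moved the median of all genes by up to -0.39 (HY33, 48 h), 14 HY33-only genes were lower at 48 h, 3 HY9115-only higher at 12 h and 6 lower at 48 h. With an FPKM of at least 5 in 3 libraries, 3 HY9115-only genes were higher at 12 h. DESeq2, no filter, the fit of 1 cultivar alone and the choice added after seeing the data (6 members left out) kept all counts within 1.5 times; the causes of these shifts were not tested.

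Leaving out libraries, HY33-only genes higher were 2 to 4 at 3 h, 2 at 12 and 24 h and 3 to 4 at 48 h. Lower were 4 to 6, 2, 4 to 6, and 5 to 9. HY9115-only genes higher were 1 to 2, 3 to 5, 3 to 5 and 6 to 10, and lower 0, 0 to 1, 0 and 2 to 3. The HY9115-only extremes came without replicate 2 of 0 h (10 higher at 48 h, 5 at 24 h), 12 h (3) or 24 h (5). Of the named log2 changes, 33 in all, none reversed; with a library left out 290 values kept the call and 7 lost it, and 1 lost it with total counts (Ah14g108600 at 48 h, 0.90).

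Replicate numbers do not pair the samples: the deviations of the 24 same-number pairs correlated at -0.12 to 0.086. With the replicate as a block, HY9115-only genes higher at 24 h were 4 in place of 3, and each other count of HY33-only genes (3 and 5, 2 and 2, 2 and 5, 3 and 9) and HY9115-only genes (1 and 0, 5 and 0, 6 and 2) was as without it.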
